A study of Mus musculus with 6 samples.

Results

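Genes that fasten the epidermis to its basement membrane were followed through 6 mouse wound arrays. The set has 9 listed genes: the integrin genes Itga6, Itgb4 and Itga3, the laminin chain genes Lama3, Lamb3 and Lama5, the plakin genes Dst and Plec, and the tetraspanin gene Cd151. A probe belonged to the set if the platform annotation gave it 1 of these symbols, which found 37 probes of 8 genes among 45281 probes of 19057 genes. Lama3 was not analysed here. Of the 37 probes, 15 were detected on all 6 arrays (detection p under 0.01), 1 on 1 array only, and 21 on none, and each of the 8 genes had at least 1 probe detected throughout.

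The hemidesmosome is the rivet between a basal keratinocyte and the matrix beneath it. Outside the cell, integrin α6β4 (Itga6 and Itgb4) grips laminin-332, of which the Lamb3 product is a chain. Inside the cell, plectin (Plec) and the epithelial form of dystonin (Dst, also called BPAG1) tie the integrin to keratin filaments, and the tetraspanin CD151 holds laminin-binding integrins together. Keratinocytes take these junctions apart to migrate over a wound and rebuild them as the new epidermis settles.

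RNA came from full thickness dorsal skin wounds of C57/BL6 mice, 8 days after injury, hybridised to Illumina bead arrays. Beta-catenin, the messenger of canonical Wnt signalling, was altered in 2 separate experiments. In the first, mice aged 2 months carried β-Catenin flox/flox (exon 3) and received Adenovirus-CRE (1 array, called stabilised, since loss of that exon gives a protein that escapes degradation) or Adenovirus-GFP (1 array, GFP control). In the second, all mice carried β-Catenin flox/flox (exons 2-6) and were treated with tamoxifen, and Cre-Esr1 is named in the genotype of the 2 knockdown arrays and not in that of the 2 tamoxifen control arrays. Replicate 1 of both tamoxifen groups was aged 5 months and replicate 2 was aged 2 months. The sources used here give neither the promoter behind Cre-Esr1, nor the number of mice behind an array, nor the cells that recombined.

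Values are the deposited log2 signals, and the brightest detected probe stands for its gene unless another is named. The arrays detected 15217 to 16656 probes each, and precision is limited by how few arrays there are. The skin markers Krt5 (12.30 to 14.11) and Col1a1 (15.01 to 15.60) were detected on all 6 arrays. Ctnnb1, which encodes beta-catenin, read 11.93 and 11.86 on knockdown replicates 1 and 2, 12.04 and 11.48 on tamoxifen control replicates 1 and 2, 11.40 on the stabilised array and 11.49 on the GFP control array. The sources used here do not place its probes inside or outside the deleted exons, and the values therefore check no label.

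The first question was how these genes differ in wounds with beta-catenin knocked down. All 8 measured genes had a lower mean in knockdown than in tamoxifen control wounds, where 48.1% of the 9855 genes tested did. Both knockdown arrays lay below both control arrays for 7 of the 8, against 16% of all genes, with Cd151 the exception, and none had both arrays above the controls (17.1% of all genes). The median log2 difference was -0.59 over the 8 genes and 0.01 over all genes. No difference passed limma's test: 0 of 8 had an adjusted p under 0.05 (0% of all genes), each of the 8 having an adjusted p of 0.976. At an unadjusted p under 0.05, 6 of the 8 were lower and none higher, against 2.52% of all genes lower and 4.4% in either direction. The members were chosen with earlier results of these data known, so these shares are description and not a test. With 2 arrays in each group, the smallest two-sided p of an exact permutation test is 0.333. In whole wounds, fewer basal keratinocytes and less RNA per keratinocyte cannot be told apart.

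**Figure D1:**
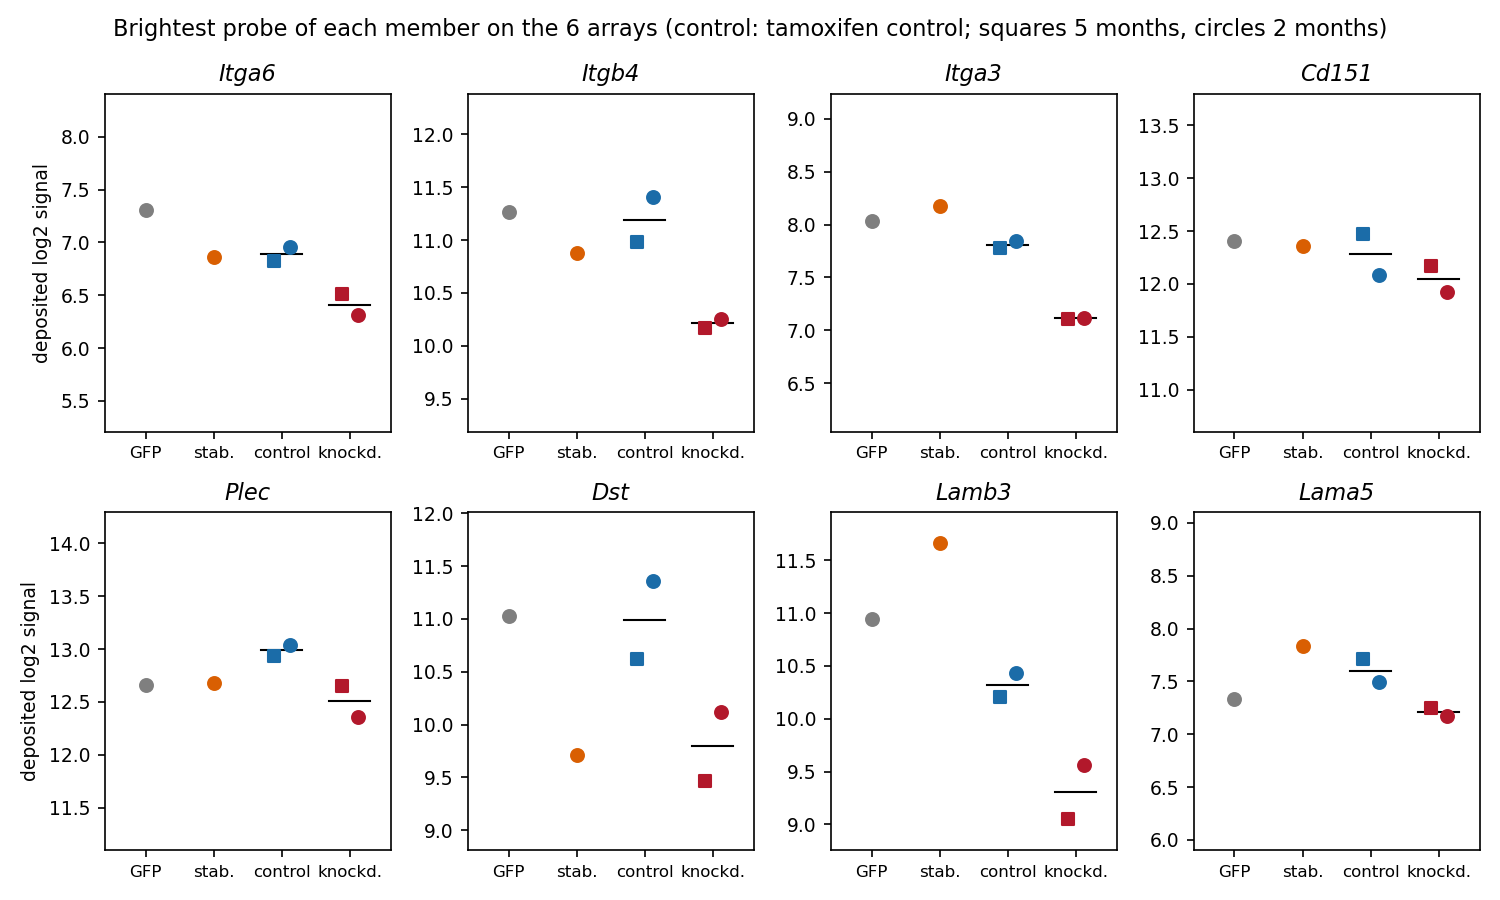
Deposited log2 signal of the brightest probe of each gene on each array, all panels spanning the same number of log2 units, with bars at the means of the tamoxifen groups. Both knockdown arrays lie below both tamoxifen control arrays in every panel but that of Cd151, while the stabilised array is the highest for Lamb3, Itga3 and Lama5 and lies between the knockdown arrays for Dst.

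Among the receptors, Itgb4 encodes the integrin chain found almost only in hemidesmosomes. Its brightest probe read 10.17 and 10.26 on knockdown replicates 1 and 2, and 10.98 and 11.40 on control replicates 1 and 2. The knockdown arrays were close to each other and below both controls, 10.21 ± 0.06 against 11.19 ± 0.30 (SD, n = 2 each), a log2 difference of -0.98 (SE 0.20, 95% interval -1.51 to -0.45, adjusted p = 0.976 in limma) or 1.97-fold. The second Itgb4 probe, which the annotation assigns to another transcript record, gave -0.85, with 8.83 and 8.93 in knockdown and 9.63 and 9.82 in control wounds. Both Itgb4 probes therefore separated the groups.

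Itga6 encodes the partner chain of Itgb4, and its 1 detected probe was dim. It read 6.51 and 6.31 on knockdown replicates 1 and 2, and 6.83 and 6.96 on the controls. The groups did not overlap, and the log2 difference was -0.48 (SE 0.16, 95% interval -0.91 to -0.05). The 2 other Itga6 probes, at 4.71 to 5.62, were below detection on every array and carry no information on direction.

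Itga3 encodes the α3 chain, which pairs with β1 integrin and binds the same laminins outside hemidesmosomes. It read 7.11 on both knockdown arrays, and 7.78 and 7.85 on control replicates 1 and 2. This was the tightest pair of groups in the set, with SDs of 0.005 and 0.05 (n = 2 each) and a log2 difference of -0.70 (SE 0.15, 95% interval -1.08 to -0.32), or 1.62-fold.

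Cd151, the tetraspanin partner of α6 and α3 integrins, had the smallest difference over the 4 arrays. Its brightest probe read 12.17 and 11.93 on knockdown replicates 1 and 2, and 12.48 and 12.09 on the controls. Knockdown replicate 1 lay between the controls, so the groups overlapped, and the log2 difference of -0.23 had a 95% interval from -0.78 to 0.31. It ran from -0.43 without control replicate 2 to -0.04 without control replicate 1. The 2 other Cd151 probes, both detected on all arrays, gave -0.13 and -0.07.

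Among the cytoplasmic linkers, Plec encodes plectin, which docks keratin filaments onto β4 integrin and also links filaments in muscle and fibroblasts. Its brightest probe read 12.65 and 12.36 on knockdown replicates 1 and 2, and 12.94 and 13.04 on the controls. The groups did not overlap, with a log2 difference of -0.48 (SE 0.18, 95% interval -0.94 to -0.02). The second detected Plec probe did not separate them: it read 9.44 and 8.73 in knockdown and 9.24 and 9.41 in control wounds, a difference of -0.24. The remaining 12 of 14 Plec probes read 4.51 to 5.77 and were below detection on every array. They include probes annotated to the same transcript records as the detected ones.

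Dst had the largest difference of the set, and it was carried by 1 of its probes. That probe, annotated to the RefSeq record NM_010081, read 9.46 and 10.12 on knockdown replicates 1 and 2, and 10.62 and 11.36 on control replicates 1 and 2. Both knockdown arrays were below both controls, with a log2 difference of -1.20 (SE 0.36, 95% interval -2.13 to -0.26) or 2.29-fold, although the replicates within each group also differed, with SDs of 0.47 and 0.52 (n = 2 each). Replicate 1, aged 5 months, was the lower in both groups, and the fit holds no term for age. The 3 other Dst probes detected on all arrays, annotated to NM_134448 or BC033468, gave 0.27, -0.01 and -0.14 and read 6.63 to 7.86 on the tamoxifen arrays. Another 7 of the 12 Dst probes, at 4.49 to 5.68, were below detection on every array and carry no information on direction. They include a second probe annotated to NM_010081 and others annotated to NM_134448, so probes of the same record differed in detection. With the mean of all detected Dst probes in place of the brightest, the log2 difference was -0.27.

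The gene makes epithelial, neuronal and muscle forms from separate start sites, and the RefSeq table of build GRCm38.p6 lists 2 starts for Dst. They are shown because the Dst probes differed in size and sign. Each window runs from 250 bases before to 50 bases after the start on the plus strand, at chr1:34011345-34011644 for the first and chr1:34160010-34160309 for the second. Capitals mark a match to a TCF/LEF motif, the factors through which beta-catenin acts, searched on both strands as the letters CTTTGAA, then as the letters CTTTGAT and then as the letters CTTTGTT.
Dst start 1: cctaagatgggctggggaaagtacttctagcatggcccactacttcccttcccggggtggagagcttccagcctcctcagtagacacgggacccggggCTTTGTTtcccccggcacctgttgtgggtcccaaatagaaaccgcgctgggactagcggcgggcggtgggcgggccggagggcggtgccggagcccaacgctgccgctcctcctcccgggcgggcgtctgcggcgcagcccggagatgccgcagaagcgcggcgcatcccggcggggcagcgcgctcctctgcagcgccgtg
Dst start 2: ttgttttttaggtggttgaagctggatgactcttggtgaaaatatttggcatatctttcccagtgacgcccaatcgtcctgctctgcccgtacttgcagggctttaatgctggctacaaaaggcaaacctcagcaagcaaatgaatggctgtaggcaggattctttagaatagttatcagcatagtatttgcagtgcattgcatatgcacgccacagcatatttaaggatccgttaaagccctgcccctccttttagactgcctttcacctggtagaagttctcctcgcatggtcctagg
The first window holds 1 match, CTTTGTT at position -152 from the start, and the second holds none. Such a match occurs in 13.9% of all 32851 promoter windows of this length and in 1 of 9 windows of the 5 members with an entry. The sources used here do not say which start each probe's transcript uses, and the arrays did not measure binding.

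Among the ligands, Lamb3 encodes the β3 chain found in laminin-332. Its single probe read 9.05 and 9.56 on knockdown replicates 1 and 2, and 10.21 and 10.43 on control replicates 1 and 2. Both knockdown arrays were below both controls, 9.31 ± 0.36 against 10.32 ± 0.16 (SD, n = 2 each), a log2 difference of -1.01 (SE 0.23, 95% interval -1.63 to -0.40) or 2.02-fold. The first of 2 Lamb3 starts in the same table, at chr1:193301744-193302043 on the plus strand, is shown as a promoter of the gene with the widest range over the 6 arrays.
Lamb3 start 1: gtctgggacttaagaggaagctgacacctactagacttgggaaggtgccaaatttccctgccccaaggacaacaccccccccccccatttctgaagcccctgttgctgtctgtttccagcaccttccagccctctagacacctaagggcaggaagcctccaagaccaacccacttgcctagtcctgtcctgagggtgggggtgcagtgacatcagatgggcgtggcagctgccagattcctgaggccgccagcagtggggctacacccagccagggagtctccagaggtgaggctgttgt
It holds no match to the TCF/LEF letters, nor to the AP-1 motif TGANTCA, which occurs in 7.81% of all windows and in 1 of the 9 member windows, that of an Itga3 start. The second Lamb3 window holds no match to either.

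Lama5 encodes the α5 laminin chain of mature epidermal and vessel basement membranes. It read 7.25 and 7.18 on knockdown replicates 1 and 2, and 7.71 and 7.50 on the controls. The groups did not overlap, but the difference was small at -0.39 (SE 0.16, 95% interval -0.82 to 0.03).

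Age split the tamoxifen arrays in the same way as replicate number, so the difference was also taken within each age, where 1 array stands against 1. All 8 genes were lower in knockdown at both ages, as were 25.8% of all genes, and the median log2 difference was -0.56 at 5 months and -0.70 at 2 months. For Itga3 the values at 5 and 2 months were -0.67 and -0.73, for Dst -1.16 and -1.24, for Lamb3 -1.16 and -0.87, and for Itgb4 -0.81 and -1.15. Across age itself, the arrays at 5 months differed from those at 2 months by a median of -0.0024 over the 8 genes and 0.05 over all genes. Cd151 alone had both 5-month arrays above both 2-month arrays (1 of 8, against 25.9% of all genes), by 0.32, and none had both below (15.6% of all genes). By size, the largest age differences were those of Dst (-0.70) and Lamb3 (-0.37), each lower at 5 months within knockdown and within control.

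**Figure D2:**
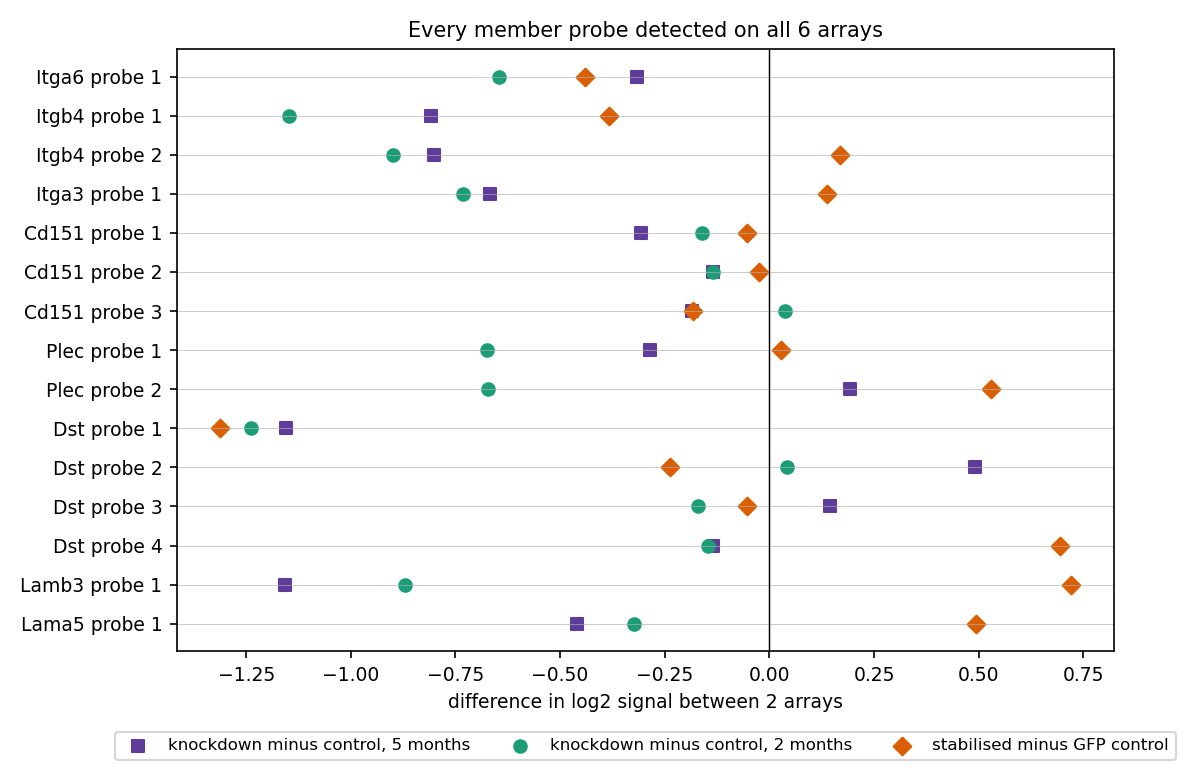
Difference in log2 signal between 2 arrays for each of the 15 probes detected on all 6 arrays, ordered by gene and, within a gene, from the brightest in control wounds. Of these probes 14 had a lower knockdown mean, and 8 had both knockdown arrays below both controls. With 1 probe per gene, the shares over all genes tested were 48.1% and 16%. Several probes belong to the same gene, so they are not separate observations. The Dst probes spread from -1.24 to 0.49 across the ages.

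The second question was what stabilised beta-catenin does to the same genes. It rests on 1 array per group, so no difference has a replicate check or a p-value, and a fold of 1.5 is used as a rule of size. The 8 genes did not lie to one side: 4 were lower and 4 higher on the stabilised array, with a median log2 difference of -0.01, against 0.05 over the 10002 genes compared. Only Dst was at least 1.5-fold lower (1 of 8, against 10.3% of all genes), and only Lamb3 was at least 1.5-fold higher (1 of 8, against 9.51%). Dst was also the only one at least 2-fold lower (4.91% of all genes), and none was at least 2-fold higher (2.76%). These shares are near the background.

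Dst read 9.71 on the stabilised and 11.03 on the GFP control array, a log2 difference of -1.31 or 2.49-fold. That placed the stabilised array between the knockdown arrays, 9.46 and 10.12, and the GFP control array between the tamoxifen controls, 10.62 and 11.36. The other 3 Dst probes detected on all arrays gave -0.24, -0.05 and 0.70. Among the probes detected on all arrays, the same one therefore stood out in both experiments. With the mean of all detected probes the difference was -0.50, under the 1.5-fold rule. One further Dst probe, which that mean includes, was detected on the GFP control array only, at 6.63. It read 5.02 on the stabilised array, a log2 difference of -1.61 that rests on a value below detection. On the tamoxifen arrays it was below detection throughout.

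Lamb3 read 11.66 on the stabilised and 10.94 on the GFP control array, a log2 difference of 0.72 or 1.65-fold. The stabilised array was its highest and the knockdown arrays its lowest, spanning 2.61 log2 units over the 6 arrays. The other laminin chain, Lama5, differed in the same direction by 0.49, from 7.34 to 7.83, but by 0.29 with median scaling and 0.31 without background correction.

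The integrins divided. Itga6 was lower by 0.44 on the log2 scale, 6.86 against 7.31, and the brightest Itgb4 probe read 10.88 against 11.26, a difference of -0.38. The second Itgb4 probe went the other way at 0.17, so Itgb4 has no settled direction here. Itga3 (8.17 against 8.03), Plec (12.68 against 12.66) and Cd151 (12.36 against 12.41) differed by 0.14, 0.03 and -0.05. The second detected Plec probe read higher on the stabilised array by 0.53.

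Set side by side, the experiments gave Dst values of -1.20 and -1.31, Itga6 values of -0.48 and -0.44, and Lamb3 values of -1.01 and 0.72, for knockdown and stabilised respectively. The floxed exons, the way Cre was supplied and the controls differ between the experiments, and the difference between them was not tested.

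**Figure D3:**
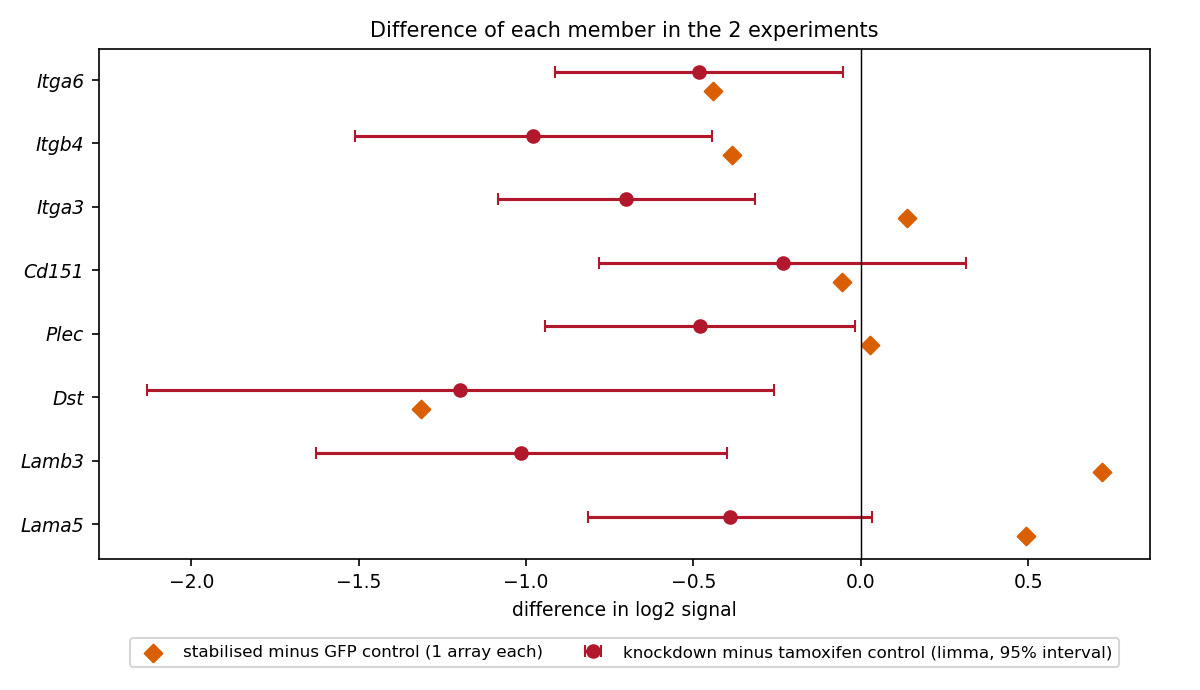
Difference in log2 signal of each gene, as the limma estimate with its 95% interval for knockdown minus tamoxifen control (2 arrays each) and as a single difference for stabilised minus GFP control (1 array each). The circles all lie below 0, while the diamonds run from -1.31 for Dst to 0.72 for Lamb3.

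Over the arrays, the lowest level of each gene was on a knockdown array, which in part restates the difference from the controls. The share of all genes for which this holds was not counted. The median of the 8 genes, each centred on its own mean over the arrays, was -0.43 on knockdown replicate 1, -0.42 on knockdown replicate 2, 0.19 and 0.17 on control replicates 1 and 2, 0.40 on the GFP control array and 0.09 on the stabilised array. Itga6, with a mean absolute distance of 0.08 from this profile, followed it most closely, and Lamb3 (0.50) and Dst (0.42) least. Among the 8677 other genes detected on all arrays, the 10 with the closest centred profile were Slc16a13, Pim3, Bcam, Mtmr4, Kcmf1, Pick1, Dnajb2, Tle6, Hr and Dcbld1, with mean absolute distances of 0.07 to 0.10 over 6 arrays, where the median gene was at 0.32. Bcam, which encodes the Lutheran glycoprotein, a receptor for the laminin α5 chain, is the gene of these that was also listed among basement membrane genes.

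Markers listed for basal keratinocytes, the cells that bear hemidesmosomes, were lower in knockdown alongside the set. The list also holds keratins of wound-edge cells. Of its 10 markers, all had a lower mean in knockdown (48.1% of all genes), and 8 were lower without overlap (16% of all genes). The median log2 difference of these markers was -1.17. Their summed linear signal was 85020 and 118400 on knockdown replicates 1 and 2, against 150600 and 178200 on the controls. Krt14, Krt16 and Krt17 are the brightest of the list and weigh most in this sum. Krt5, the basal keratin to which the linkers attach, read 12.30 and 13.01 against 13.56 and 14.11, a difference of -1.18. Krt15, Krt17 and Krt16, keratins of basal and wound-edge cells, differed by -1.57, -1.64 and -1.37, all with an adjusted p of 0.976 in limma. Krt14 differed by -0.09, but at 15.85 to 16.02 it sat close to the highest value of the table, 16.04. On the adenovirus arrays 6 of the 10 markers were higher and 4 lower on the stabilised array, with a median of 0.02 and summed signals of 178800 against 196600. By the 1.5-fold rule 4 were lower and 1 higher, with Krt15 at -3.93 and Krt17 at -0.94. The part of basal keratinocyte number in the results was not tested.

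Of 8 tested suprabasal keratinocyte markers 5 were lower and 3 higher in knockdown, with a median of -0.02, and 7 of 8 were lower on the stabilised array, by a median of -0.18. Krt2 read 11.13 and 12.05 in control wounds and 8.33 on knockdown replicate 2, and was below detection on knockdown replicate 1. Skeletal muscle, where Plec and Dst are also active, had all 10 markers lower in knockdown, with Myh4 below detection there and at least 3.28-fold lower (adjusted p = 0.866 in limma), Atp2a1 at -2.25 and Actn3 at -1.87. Its summed signal was 7736 and 44920 on knockdown replicates 1 and 2, against 110100 and 40490 on the controls. The median difference of the muscle markers was -3.68 at 5 months and -0.15 at 2 months. On the adenovirus arrays the muscle sum was 449.2 on the stabilised and 6239 on the GFP control array. The part of muscle in the Plec and Dst values was not tested. Endothelium, which uses Lama5, Itga6 and Cd151, had 5 of 10 markers lower and 5 higher in knockdown with a median of 0.01. Its sum was 16630 and 15220 on knockdown replicates 1 and 2 against 21080 and 13080 on the controls, and all 9 compared markers were higher on the stabilised array, by a median of 0.36. Of the Schwann cell markers, 4 were tested and 2 were lower. Sox10, their defining gene, differed between the knockdown arrays, at 9.69 and 6.28 for replicates 1 and 2. The fibroblast list had 3 of 10 lower in knockdown with a median of 0.02, and the macrophage list 2 of 8 with a median of 0.11. The neutrophil list had 1 of 5 lower, with a median of 0.86, and Retnlg read 8.98 and 10.01 in knockdown against 6.70 and 5.72 in control wounds, the last below detection. On the stabilised array the medians of these 3 lists were 0.23, 0.70 and -0.30. Hair follicle and sebaceous markers had 4 of 5 lower in knockdown and 8 of 9 lower on the stabilised array, by medians of -0.78 and -3.20, with the sebaceous gene Scd1 at -1.18 in knockdown.

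**Figure D4:**
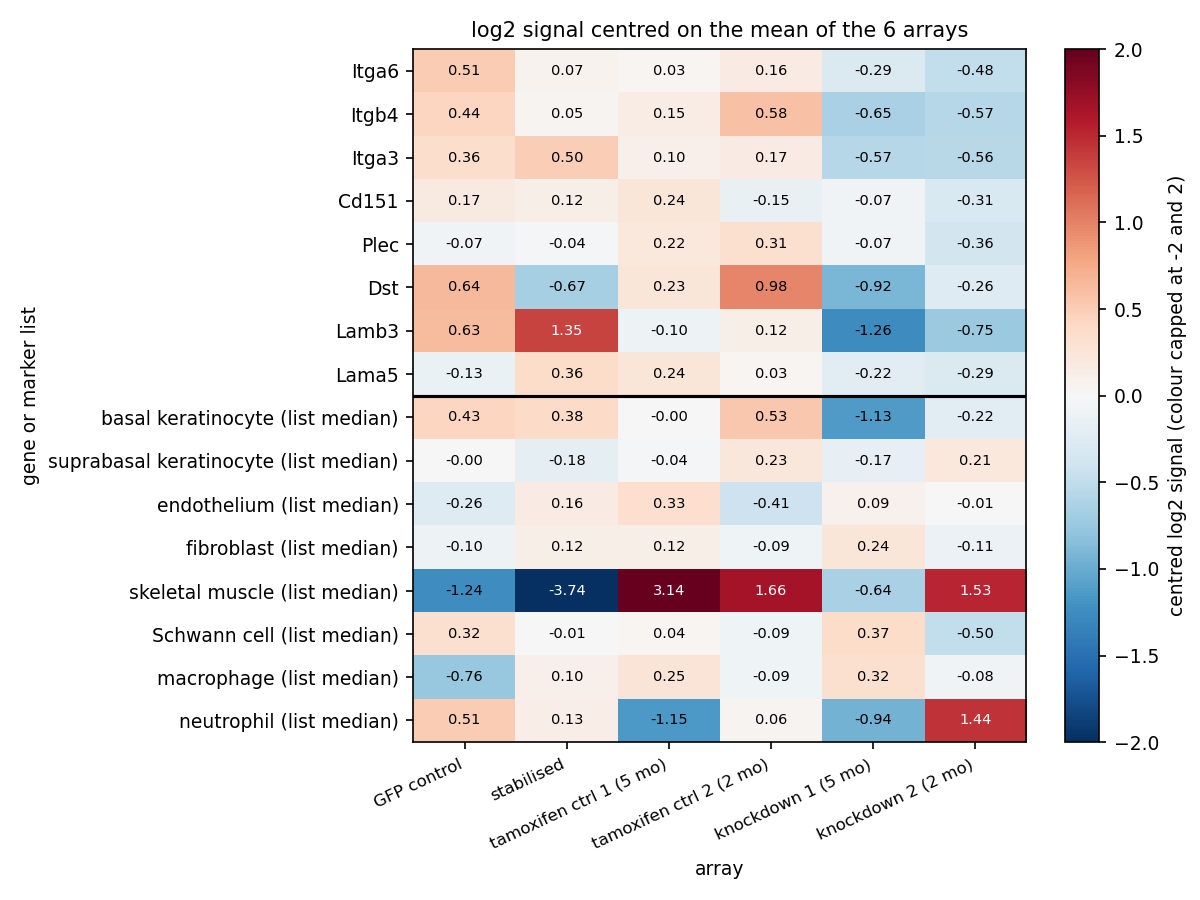
Log2 signal of each gene (rows above the line) and the median of each marker list (rows below it), centred on the mean of the 6 arrays. The basal keratinocyte row is lowest on knockdown replicate 1 (-1.13) and next lowest on knockdown replicate 2 (-0.22), while the skeletal muscle row is lowest on the stabilised array (-3.74).

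Genes related to this junction and its matrix were read as whole lists, and none had an adjusted p under 0.05. Of 11 tested junction partners, 7 were lower and 4 higher in knockdown, with a median of -0.09. Without overlap, 5 were lower (16% of all genes) and 1 higher (17.1%). The partners include Krt5, which is also a basal keratinocyte marker, and integrin genes such as Itgav and Itga5, so their median covers more than the hemidesmosome. On the adenovirus arrays their 2 largest differences were Itgav, at -0.90, and Itga5, at 0.61, which encode integrin chains that bind provisional matrix.

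Of 16 tested components and receptors of basement membranes at large, 10 were lower and 6 higher in knockdown, with a median of -0.04. Without overlap, 2 were lower (16% of all genes) and 1 higher (17.1%). Bcam read 6.96 and 7.07 on the knockdown arrays against 7.50 and 7.58 on the controls, a log2 difference of -0.52 (adjusted p = 0.976 in limma). Nid2, which encodes a nidogen that links laminin and collagen IV networks, was higher, 10.69 and 10.47 against 10.20 and 9.87, a difference of 0.54. On the stabilised array 11 of 16 were higher, 4 at least 1.5-fold, led by Col4a2 at 0.94 and Col15a1 at 0.91, collagens of basement membranes.

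Of 6 tested laminin-processing and matrix-degrading enzymes, 5 were higher and 1 lower in knockdown, with a median of 0.11. On the stabilised array the gelatinase gene Mmp9 and the urokinase gene Plau differed by 1.49 and 1.13. Among 9 other tetraspanins the median was -0.05 in knockdown. Tspan8 was below detection in both knockdown wounds, so its fold is a bound of at least 2.50-fold lower (adjusted p = 0.665 in limma), and its log2 difference on the stabilised array was -1.76. Cd37, a tetraspanin of leukocytes, was higher there by 1.21. Of 8 other plakins and cytoskeletal linkers, 7 were higher and 1 lower in knockdown, with a median of 0.17. Without overlap, 4 were higher (17.1% of all genes) and none lower (16%). Tln1, which encodes talin, was below detection in control wounds and at least 1.29-fold higher. On the stabilised array the 2 largest differences were Fblim1 at 0.58 and Evpl at 0.53.

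**Figure D5:**
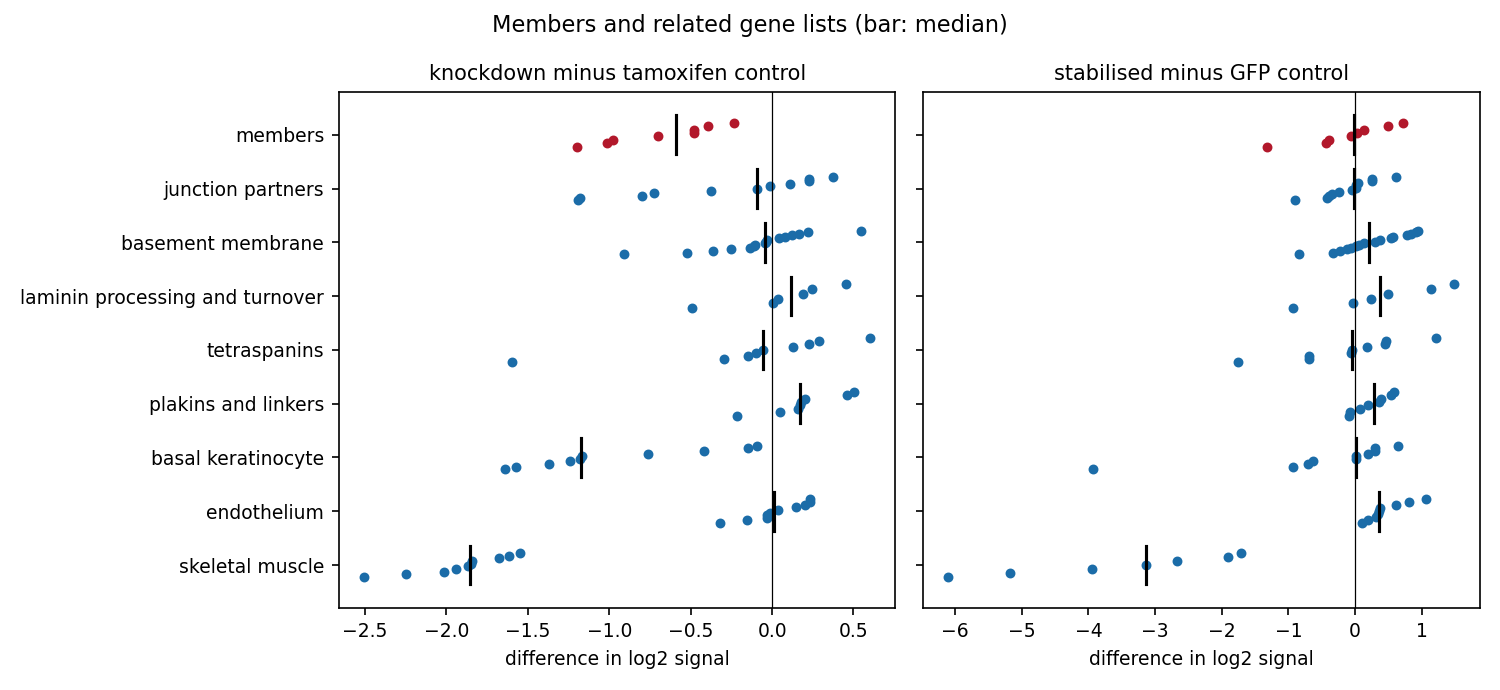
Difference in log2 signal of each tested gene in the set (top row) and in related lists, for knockdown minus tamoxifen control and for stabilised minus GFP control, with bars at the medians. In the knockdown panel all points of the set, of basal keratinocyte markers and of skeletal muscle lie below 0.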

How the data were processed

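RNA of 6 arrays was measured. The deposited non-normalized table holds, per the file headers, an average intensity and a detection p-value per probe and array, with array medians of 136 to 152. The deposited log2 table, used here, has near-equal quantiles on every array and lies within 0.0874 of limma's neqc on those intensities; the submitters' processing notes name R 2.14, and the sources used here do not name the normalization. Of the intensity file, 2 stray lines were dropped.

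Probes with 1 symbol (34885; 18 had several, 10378 none) were kept if 2 or more of the 4 tamoxifen arrays detected them (p under 0.01), the brightest per gene over the 6 arrays standing for it, which left 9855 genes. Knockdown was compared with tamoxifen control by limma 3.58.1 in R 4.3.3 (group means, eBayes at its defaults, two-sided tests, Benjamini-Hochberg adjustment over all genes, 2 residual degrees of freedom). For the adenovirus pair, genes detected on at least 1 array were compared by the log2 difference. A gene below detection on both arrays of a group gets a bound: the other group's mean minus that of a floor, set on each array at the lowest detected log2 signal or the gene's own if higher. The p-values measure the spread between arrays the labels number as replicates, which within each tamoxifen group also differ in age.

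Named genes are the members, Ctnnb1, the 10 genes nearest the members' median centred profile, list genes with an unadjusted p under 0.05 in knockdown (at most 4 a list), the 2 largest adenovirus differences of each list of related genes, and markers that define a cell type; Krt15 on the stabilised array follows the same rule. The members and lists were chosen with earlier results of these data known. Promoters are RefSeq sequences of GRCm38.p6.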

Additional observations from a re-analysis of the deposited data

Results flagged for a closer look

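Within the tamoxifen experiment, 3 secondary probes detected on all arrays had a knockdown difference of opposite sign at 5 and 2 months, and whether the ages differ was not tested. A Dst probe annotated to BC033468 gave 0.14 at 5 months and -0.17 at 2 months. The dimmer Plec probe gave 0.19 and -0.67. The dimmest of the Cd151 probes gave -0.19 and 0.036. The brightest probes of these genes were lower in knockdown at both ages.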

How the results depend on the processing

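No member had an adjusted p under 0.05 in any of the 13 alternative fits of the knockdown comparison, and every member kept its direction in the 12 that give 1 value a gene. Over all genes the count was 0 in those fits, with 383 to 861 genes at an unadjusted p under 0.05 other than without tamoxifen control replicate 2 (238), except without knockdown replicate 1, where 7 genes passed, none a member (range 0 to 7); a lone array is assumed to vary like the other group. As single arrays were left out, the members' median difference ran from -0.66 to -0.54. With the replicate block, 0 genes passed, 746 had an unadjusted p under 0.05 and the members' adjusted p ran from 0.631 to 0.732; with 2 pairs sharing a number and an age (correlation of deviations 0.13) this was not taken as pairing. The count of members at least 1.5-fold lower on the stabilised array was 2 with median scaling (Itga6 at -0.71 joined Dst), where the median of all genes was -0.10, and 0 with the mean of all detected probes. With median scaling Itga3 was -0.05 on the stabilised array, against 0.14. The median difference between ages was -0.11 in controls alone and 0.03 in knockdown alone. Without background correction dim probes differed less (Itga6 -0.22).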
